A study of Mus musculus with 2 samples.

Results

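The thioredoxin and peroxiredoxin system was examined as 10 genes chosen by name: the thioredoxins Txn1 and Txn2, the thioredoxin reductases Txnrd1 and Txnrd2, the sulfiredoxin gene Srxn1, and the peroxiredoxins Prdx1, Prdx2, Prdx3, Prdx5 and Prdx6. A probe set whose annotation named the gene alone was found for 8 of the 10, out of 19946 genes named in this way on the array. No probe set named Prdx5 or Prdx6 alone, and these genes were not analysed here. Where 2 probe sets named a gene, the brighter one over both arrays gave its value, and the difference was celastrol minus DMSO on the log2 scale.

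Both cultures were mouse embryonic fibroblasts (MEFs), cells cultured from the connective tissue of embryos, and both carried an adenovirus expressing LacZ, a bacterial enzyme gene. The control culture was given DMSO, the solvent, and the other was given 250 nM celastrol, a quinone methide triterpenoid from a medicinal vine, each for 7 h in DMEM with 1% FBS. Embryo age, mouse strain and passage were not given in the sources used here. Each condition was measured on 1 Affymetrix whole-transcript array, which leaves no p-value and no error for any difference, and treatment, culture and array cannot be told apart. The question the design puts to these genes is how far their transcripts differ between MEFs given celastrol and MEFs given solvent.

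The members form a relay that passes electrons from NADPH to peroxides. Thioredoxin reductase, a selenoprotein, reduces thioredoxin, and thioredoxin in turn reduces peroxiredoxins after they have reacted with hydrogen peroxide. When the peroxide is in excess the reactive cysteine of the typical peroxiredoxins can be oxidised further to a sulfinic acid, and sulfiredoxin is the enzyme that repairs it. Cytosol and mitochondria hold separate sets, with Txn1, Txnrd1, Prdx1, Prdx2 and Srxn1 mainly in the cytosol and Txn2, Txnrd2 and Prdx3 in mitochondria. In many cell types the transcription factor NRF2 controls Srxn1, Txnrd1 and Prdx1 through antioxidant response elements in DNA.

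The sequences just upstream of the annotated start sites of Srxn1, Txnrd1 and Prdx1, the members with the highest differences, are shown with that of Txn1, whose value was nearly the same on both arrays. They are the 250 bases before the start site in RefSeq (GRCm38.p6), written along the gene's own strand. Capitals mark matches on either strand to TGANNNNGC, a shortened antioxidant response element core. Such a match lay upstream of 38.7% of all genes. The 4 windows are examples and do not stand for all members. The window of Txn2, whose value was also nearly the same on both arrays (0.03), is not shown and held 2 matches. That of the first Txnrd1 start, also not shown, held none. The Srxn1 window is chr2:152105274-152105523 (plus strand), the Txnrd1 window, for the second of its 3 annotated starts, is chr10:82858956-82859205 (plus strand), the Prdx1 window is chr4:116685349-116685598 (plus strand), and the Txn1 window is chr4:57956412-57956661 (minus strand).
Srxn1: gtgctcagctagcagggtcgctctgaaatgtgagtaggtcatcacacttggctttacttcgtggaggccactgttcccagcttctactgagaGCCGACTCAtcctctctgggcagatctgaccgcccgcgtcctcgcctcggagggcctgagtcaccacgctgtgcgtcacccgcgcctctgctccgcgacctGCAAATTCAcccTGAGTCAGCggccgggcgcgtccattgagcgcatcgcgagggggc
Txnrd1: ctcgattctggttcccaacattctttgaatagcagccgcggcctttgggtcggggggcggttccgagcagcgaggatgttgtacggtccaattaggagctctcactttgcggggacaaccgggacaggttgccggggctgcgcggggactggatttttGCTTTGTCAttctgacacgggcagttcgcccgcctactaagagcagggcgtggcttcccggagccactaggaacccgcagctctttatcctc
Prdx1: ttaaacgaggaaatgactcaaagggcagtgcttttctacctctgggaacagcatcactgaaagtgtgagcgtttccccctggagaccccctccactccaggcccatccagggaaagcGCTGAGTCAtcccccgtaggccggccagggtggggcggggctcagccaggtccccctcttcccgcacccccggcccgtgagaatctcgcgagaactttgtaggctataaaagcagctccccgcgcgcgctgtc
Txn1: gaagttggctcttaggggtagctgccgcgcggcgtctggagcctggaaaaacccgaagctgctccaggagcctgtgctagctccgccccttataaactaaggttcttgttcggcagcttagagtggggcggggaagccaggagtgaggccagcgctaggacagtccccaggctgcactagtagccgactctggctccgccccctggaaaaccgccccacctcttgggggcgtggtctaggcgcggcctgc

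Of the 8 measured genes, Srxn1 and Txnrd1 had values with celastrol at least 2-fold above those with DMSO, and the other 6 lay within 0.5 of 0 on the log2 scale. Over all 13899 detected genes, 1.89% were at least 2-fold higher, and 84.9% lay within 0.5 of 0. Detection meant a value above 5.73 on either array, a limit below which 95% of the values of 1205 olfactory and vomeronasal receptor probe sets lay, and all 8 genes were above it on both arrays. The members' median difference was 0.0049, beside -0.01 for all detected genes, so the differences of Srxn1 and Txnrd1 were not shared by the set as a whole. No member was 2-fold lower, a size reached by 0.662% of detected genes. Of the 8 genes, 4 were above 0 and 4 below, where 48.1% and 51.9% of all detected genes lay. The count stayed at 2 with a threshold of 1.5-fold, which 6.19% of detected genes reached, and was 1 with a threshold of 3-fold, which 0.432% reached.

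**Figure D1:**
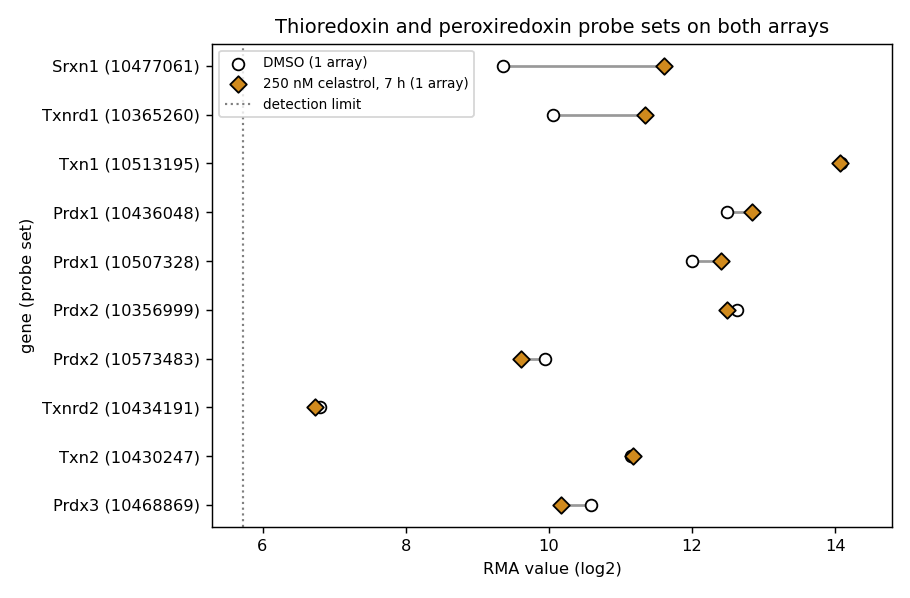
Deposited log2 values (x axis) of the 10 probe sets naming Srxn1, Txnrd1, Txn1, Prdx1, Prdx2, Txnrd2, Txn2 or Prdx3 (y axis) on the DMSO array (open circles) and the celastrol array (diamonds), with the detection limit at 5.73 dotted. The symbols are widely separated for Srxn1 and Txnrd1, and lie close together or overlap for the other genes.

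Srxn1 encodes sulfiredoxin, which returns over-oxidised peroxiredoxins to their working form. Its value (probe set 10477061) was 9.35 with DMSO and 11.61 with celastrol. The celastrol array was higher by 2.26 on the log2 scale, a 4.78-fold difference, the 13th highest among the 13899 detected genes. Its level was not near the detection limit, as the DMSO value lay 3.63 above it. Of 1592 other detected genes whose mean over both arrays was within 0.5 of that of Srxn1, 3 had a larger absolute difference.

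Txnrd1 encodes the cytosolic thioredoxin reductase, the enzyme that recharges thioredoxin with electrons from NADPH. Its value (probe set 10365260) was 10.05 with DMSO and 11.34 with celastrol. That is a difference of 1.28, or 2.44-fold, at rank 129 from the highest. Among 1362 other detected genes of similar level, 25 had a larger absolute difference. Transcripts from the 3 annotated starts of Txnrd1 were not separated by this probe set.

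Txn1 encodes the cytosolic thioredoxin, the substrate of Txnrd1. Its value (probe set 10513195) was 14.08 with DMSO and 14.06 with celastrol, a difference of -0.02. The reductase and its substrate therefore differed by unequal amounts, 1.28 against -0.02. The deposited values end at 14.52, and whether the Txn1 probes were saturated was not tested, as no scanner file was used here.

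The mitochondrial pair showed almost equal values on both arrays. Txn2, the mitochondrial thioredoxin (probe set 10430247), was at 11.15 with DMSO and 11.18 with celastrol, a difference of 0.03. Txnrd2, the mitochondrial thioredoxin reductase (probe set 10434191), was at 6.81 with DMSO and 6.74 with celastrol, a difference of -0.07. Txnrd2 was the member nearest the detection limit, 1.08 above it with DMSO, and RMA tends to compress the differences of dim probe sets. The reductases of the 2 compartments differed by 1.28 and -0.07, while their thioredoxins differed by -0.02 and 0.03.

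Prdx1 is an abundant cytosolic peroxiredoxin that takes its electrons from thioredoxin. Its brighter probe set (10436048) gave 12.48 with DMSO and 12.84 with celastrol, a difference of 0.35 or 1.28-fold. Its other probe set (10507328) gave 12.00 and 12.40, a difference of 0.40 or 1.32-fold. The probe sets therefore gave differences of the same sign and nearly the same size. Of 224 detected genes of similar level, 43 had a larger absolute difference, so a difference of this size was not rare on these arrays.

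Prdx2, the other typical cytosolic peroxiredoxin, had slightly lower values with celastrol. Its brighter probe set (10356999) gave 12.62 with DMSO and 12.49 with celastrol, a difference of -0.13. Its dimmer probe set (10573483) gave 9.94 and 9.62, a difference of -0.33 or 1.25-fold lower. Both probe sets were lower on the celastrol array, but their differences were unequal.

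The place of these probe sets on the array bears on which transcripts they measure. The 10 named probe sets with the nearest identifiers to the brighter Prdx2 probe set all name genes of 1 chromosome, and it is not the chromosome of Prdx2. They include Pam and Rnf152 on its flanks, and in the RefSeq gene table a pseudogene, Prdx2-ps1, lies between those genes. The brighter Prdx1 probe set likewise had 0 of its 10 nearest neighbours on the chromosome of Prdx1, with Gcsam and Dppa4 on its flanks. Between them the table listed no pseudogene with a symbol built on the name Prdx1. A copy listed under another symbol would have been missed by this search. For the dimmer probe set of each gene, 10 of 10 neighbours named genes on the gene's own chromosome. How much of the brighter signals came from a copy of the gene was not tested, so the values of Prdx1 and Prdx2 from those probe sets are uncertain, and those from the dimmer ones (0.40 and -0.33) are given beside them.

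Prdx3, the mitochondrial peroxiredoxin that Txn2 reduces, had the lowest difference of the 8 genes. Its value (probe set 10468869) was 10.59 with DMSO and 10.17 with celastrol, a difference of -0.42 or 1.34-fold lower. This placed it 1431st from the lowest of 13899 detected genes, and 456 of 1657 detected genes of similar level had a larger absolute difference.

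**Figure D2:**
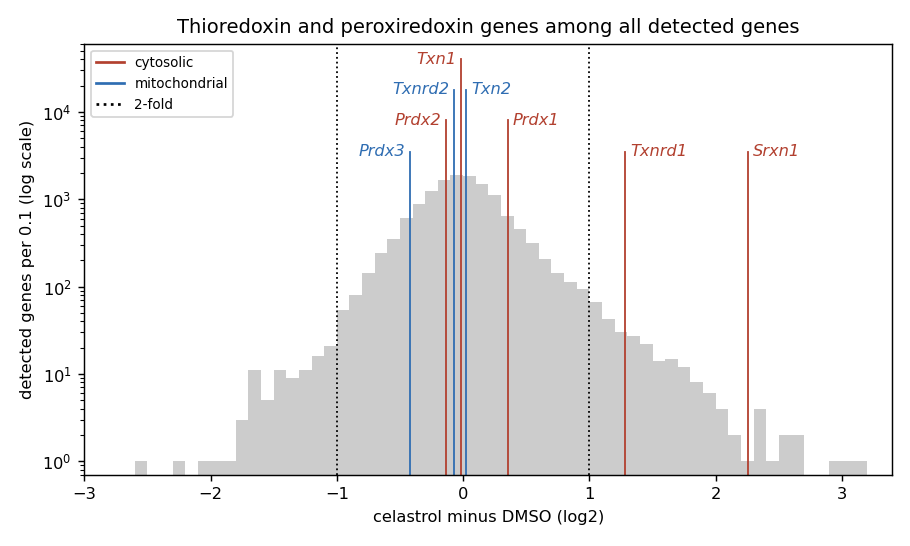
Histogram of the celastrol minus DMSO difference (x axis, log2) for the 13899 detected genes (y axis, genes per 0.1, log scale), with the 8 measured genes as lines (red cytosolic, blue mitochondrial, heights arbitrary) and dotted lines at 2-fold. Srxn1 at 2.26 and Txnrd1 at 1.28 lie in the upper tail, and the other 6 lie between -0.42 and 0.35.

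By compartment, 3 of the 5 cytosolic genes were above 0, 2 of them at 2-fold or more, and their median was 0.35. The 3 mitochondrial genes ran from -0.42 to 0.03 with a median of -0.07. None of them reached 2-fold, where 1.89% of all detected genes were 2-fold higher and 0.662% lower. Each count rests on few genes and on 1 array per condition, and the contrast between compartments was not tested. Srxn1 exceeded the measured peroxiredoxins in difference by 1.90 (Prdx1), 2.39 (Prdx2) and 2.68 (the mitochondrial Prdx3) on the log2 scale. The Prdx1 and Prdx2 gaps, and the cytosolic median, rest on the brighter probe sets, whose values are uncertain as stated above. The dimmer probe sets gave differences of 0.40 (Prdx1) and -0.33 (Prdx2).

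The members' differences were set beside their nearest neighbours in the order of all detected genes, leaving out provisional names. With only 2 arrays this likeness is a likeness in 1 difference. Srxn1 stood between Hspb1, a small heat shock protein (2.16), and Nr1d1, a circadian repressor (2.31). Txnrd1 stood between Fgf2, a fibroblast growth factor (1.27), and Tgif1, a homeobox repressor (1.29). Prdx3 stood next to Gtf2h3, a subunit of a general transcription factor, and Dnajc19, a mitochondrial J-domain protein, both at -0.42.

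Relatives of thioredoxin outside the members had differences between -0.44 and 0.50. All 17 listed relatives were detected, 6 above 0 and 11 below, with a median of -0.07. None was 2-fold in either direction, where 1.89% of all detected genes were 2-fold higher and 0.662% lower. A count of 0 in a short list is near those shares. The highest were Txnl4b, a splicing-related thioredoxin-like protein (8.17 with DMSO and 8.67 with celastrol, a difference of 0.50), and Txnl1, a proteasome-associated thioredoxin-like protein (0.44). The lowest were Txndc11 (-0.44) and Txndc15 (-0.33). Prdx4, the peroxiredoxin of the endoplasmic reticulum, and Txnrd3, the third thioredoxin reductase, stood at -0.07 and -0.21. Txnrd1 was thus the only one of the 3 thioredoxin reductase genes past 2-fold on these arrays. Txnrd2 and Txnrd3 were dimmer, at 6.81 and 7.24 with DMSO beside 10.05 for Txnrd1. RMA tends to compress the differences of dim probe sets, which limits this comparison.

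The inhibitor of thioredoxin, its clients and the sestrins, which were listed with them but are not called clients here, differed in both directions. Of 12 genes, all detected, 4 were above 0 and 8 below, with a median of -0.27. At least 2-fold higher was 1 of them, beside 1.89% of all detected genes. Sesn2, a stress-induced sestrin, had values of 8.10 and 9.24 (DMSO and celastrol) and was 2.20-fold higher, whereas its relative Sesn1 was 1.47-fold lower (-0.56). Map3k5, the kinase ASK1 that thioredoxin binds and restrains, was 1.70-fold higher (0.77). Txnip, which binds and inhibits thioredoxin, had values of 10.34 and 9.65 (DMSO and celastrol) and was 1.61-fold lower (-0.69), the lowest of the list.

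In the parallel glutathione branch, 8 genes were detected, 4 above 0 and 4 below, with a median of 0.0028. At least 2-fold higher were 2 of them, beside 1.89% of all detected genes. The 2 were Gclc and Gclm, the catalytic and modifier subunits of the enzyme that starts glutathione synthesis, at 3.24-fold (1.70) and 2.50-fold (1.32). Gsr, the glutathione reductase, was 1.37-fold higher (0.45), less than the 2.44-fold of Txnrd1. The glutaredoxins Glrx2 (-0.22) and Glrx (-0.17), which use glutathione as thioredoxin uses its reductase, were the lowest. This list resembled the thioredoxin genes in having 2 genes past 2-fold and a median near 0, which is a description of the counts.

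No other listed enzyme that removes peroxide or superoxide reached 2-fold, near the shares over all detected genes (1.89% higher, 0.662% lower). Of 10 listed genes 9 were detected, 4 above 0 and 5 below, with a median of -0.18. Gpx2, a glutathione peroxidase, had the highest difference (0.46), but its DMSO value (5.34) lay below the detection limit and its celastrol value (5.79) just above it. Gpx7, also counted above 0, likewise passed the limit only with celastrol (5.64 with DMSO and 5.80 with celastrol). The filter therefore fixed the signs of Gpx2 and Gpx7. Cat, catalase, stood at 0.16. Sod2, the mitochondrial superoxide dismutase, was at 12.33 with DMSO and 11.79 with celastrol (-0.54), and Sod3, the secreted form, stood at -0.45.

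Genes that handle selenocysteine, the residue at the active site of thioredoxin reductases, had differences between -0.49 and 0.26. Of 8 genes, all detected, 3 were above 0 and 5 below, with a median of -0.19. None differed by 2-fold, which is near the shares over all detected genes (1.89% higher, 0.662% lower). Sephs2, which makes the selenium donor, was highest (0.26) and Scly, selenocysteine lyase, next (0.07). Eefsec, the elongation factor for selenocysteine, was lowest (-0.49), followed by Pstk, a kinase of the selenocysteine transfer RNA (-0.43).

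Among genes listed for the supply of NADPH, the electron source of the relay, none reached 2-fold. Over all detected genes 1.89% were 2-fold higher and 0.662% lower. Of 8 listed genes 7 were measured and detected (G6pdx was not analysed here), 3 above 0 and 4 below, with a median of -0.13. The list includes enzymes that do not themselves make NADPH, and the median is the value of such an enzyme. Me1, malic enzyme, was highest (0.45), followed by Pgd of the pentose phosphate pathway (0.27). The isocitrate dehydrogenases were lowest, with cytosolic Idh1 1.70-fold lower (10.88 and 10.11, a difference of -0.77) and mitochondrial Idh2 at -0.32.

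**Figure D3:**
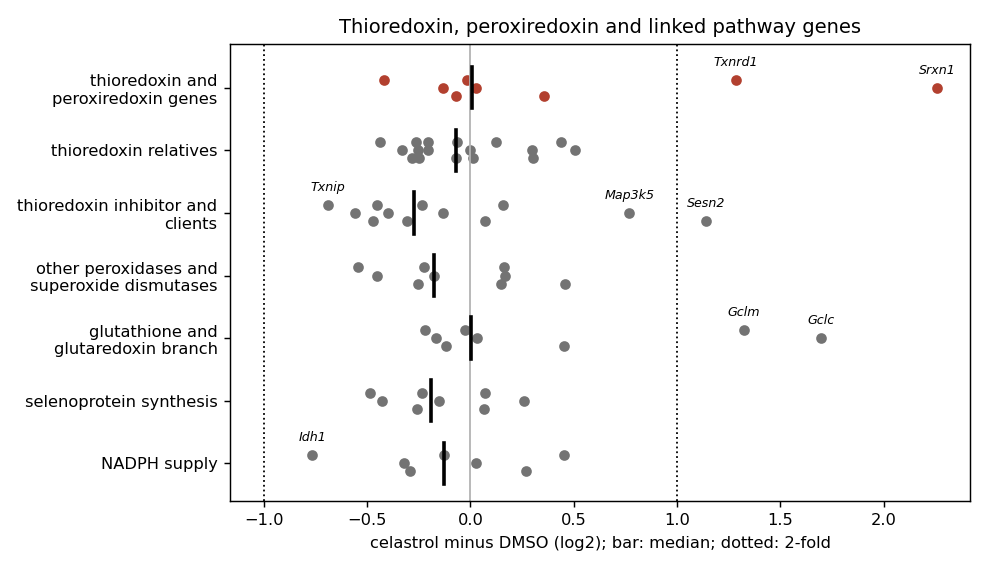
Celastrol minus DMSO differences (x axis, log2) of the detected genes of 7 groups (y axis), 1 point per gene, with black bars at each group's median and dotted lines at 2-fold. Points past 2-fold are Srxn1 and Txnrd1 among the thioredoxin and peroxiredoxin genes (red), the sestrin Sesn2 in the group labelled inhibitor and clients, and Gclc and Gclm in the glutathione branch.

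The upstream windows of 9 of the 10 genes, all but Prdx6, were searched for 3 motifs on both strands. The antioxidant response element core TGACNNNGC occurred upstream of 2 of the 9 genes, Txnrd1 and Prdx1, and upstream of 11.5% of 27025 genes in the table. In the Prdx1 window above the match reads TGACTCAGC on the opposite strand, 133 to 125 bases before the start, and in the Txnrd1 window it reads TGACAAAGC, 92 to 84 bases before the start. Srxn1, the member with the highest difference, had no match to that core. With the shortened core TGANNNNGC, every match to the longer core being also a match to it, 5 of the 9 genes had a match (Srxn1, Txnrd1, Prdx1, Txn2 and Prdx5), beside 38.7% of all genes.

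The Srxn1 window held 3 matches to the shortened core, and the one closest to the start reads TGAGTCAGC at 45 to 37 bases before it. The form that it shares with the Prdx1 match, TGANTCAGC, was searched after these matches had been seen. It occurred upstream of 1.17% of all genes and of 2 of the 9, Srxn1 and Prdx1, which were the genes it was drawn from. The windows of Txn1, Prdx2, Txnrd2 and Prdx3, with differences of -0.02, -0.13, -0.07 and -0.42, held no match to the shortened core, nor did that of the first Txnrd1 start, while that of Txn2 (0.03) held 2. A pair of heat shock element half-sites, GAANNTTC, was found upstream of Prdx3 alone among the 9, as GAAATTTC 180 to 173 bases before the start, and upstream of 7.73% of all genes. The ATF4-type element TTNCATCA was found upstream of 0 of the 9 and of 3.91% of all genes. These matches describe letters in a short window and give no information on binding.

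**Figure D4:**
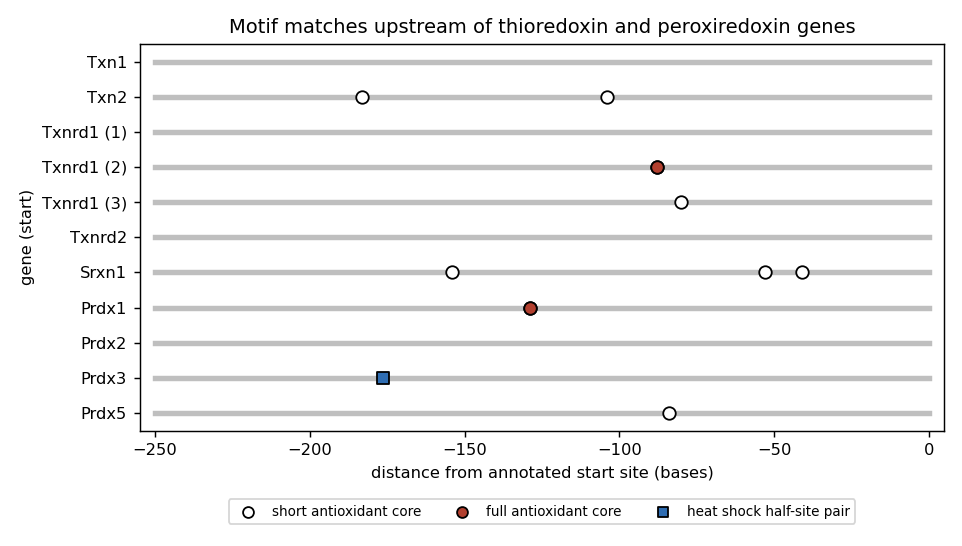
Positions of motif matches (x axis, bases before the annotated start site) in the 11 upstream windows of 9 genes (y axis; Txnrd1 has 3 starts), with open circles for the shortened antioxidant core, filled circles for the full core and a square for the heat shock half-site pair. Srxn1 has 3 open circles, Prdx1 and the second Txnrd1 start have a filled circle each, and Txn1, Txnrd2, Prdx2 and the first Txnrd1 start have none.

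The labelled cell type was checked against marker genes on both arrays. Of 12 fibroblast markers 11 were detected, and Lum was below the limit. Of these 11, 3 were above 0 and 8 below with celastrol, with a median difference of -0.24. The lowest were S100a4, a calcium-binding protein (1.84-fold lower, -0.88), and Postn, the matrix protein periostin (1.53-fold lower, -0.61). The highest were Pdgfra, a growth factor receptor (0.27), and Vim, the intermediate filament vimentin (0.09).

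Of 10 macrophage and leukocyte markers 4 were detected, and all 4 were above 0, with a median of 0.48. They were Cd68, also a lysosomal protein (2.76-fold higher), Cd14 (1.63-fold higher), Csf1r (0.26 on the log2 scale) and Tyrobp (0.09). Tyrobp lay below the limit with DMSO (5.69) and above it only with celastrol (5.78), so the filter fixed its sign. The defining markers Ptprc, Adgre1 and Itgam were below the limit on both arrays. Of 8 endothelial markers 4 were detected, from Egfl7 (-0.17) to Cldn5 (0.19), and Pecam1 was not. Among the detected ones, Cdh5 passed the limit only with celastrol (5.62 with DMSO and 5.77 with celastrol). Of 8 epithelial markers 6 were detected, from Krt14 (-0.31) to Krt5 (0.22), and Epcam was not. Krt14 passed the limit only with DMSO (5.97, and 5.66 with celastrol). Krt5 passed it only with celastrol (5.89, and 5.67 with DMSO). For Cdh5, Krt14 and Krt5 the filter therefore fixed the sign of the difference. The part of these genes in the differences of Srxn1 and Txnrd1 was not tested.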

How the data were processed

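Total RNA from 2 cultures was biotin-labelled and hybridised to Affymetrix whole-transcript arrays, per the labels' protocols. In the deposited table the authors give log2 values made with RMA (background correction, quantile normalization and a summary per probe set), a tool named in the submitters' processing notes, with version and settings not given in the sources used here. They ran from 2.73 to 14.52, with medians of 6.33 and 6.35. Of 35556 probe sets, GEO's platform annotation named 1 gene for 21797, several for 1613 and none for 12146. Entrez identifiers of 21698 probe sets matched the RefSeq gene table (GRCm38.p6), used for names and gene order.

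Each gene took the value of its brightest probe set, and a fold is 2 to the power of the absolute log2 difference. Similar level means a mean within 0.5. With 1 array per group no test was run, and the number of arrays limits the precision. The members and lists were chosen with earlier results of these data known. Every member is named, with the 2 highest and 2 lowest detected genes of each other pathway list. Marker genes, and Prdx4, Txnrd3 and Gsr, were named outside this rule, after their values were seen. Alternatives were quantile normalization, subtraction of the median difference or of a lowess trend (fraction 0.3), averaging the probe sets of a gene, a detection limit at the median of all probe sets, fold thresholds of 1.5 and 3 and a shorter motif. The dimmest probe set and the motif TGANTCAGC were added after seeing the data. Promoter windows came from RefSeq. Protein sequences were not used here. The code was tested on simulated arrays with planted differences above the 2-fold threshold and noise set by hand, and on sequences with planted motifs. That test checks the code and gives no information on the error of the real arrays. Software was numpy 2.4.6, statsmodels 0.14.6 and pandas 2.3.3 under Python 3.11.15.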

Additional observations from a re-analysis of the deposited data

How the results depend on the processing

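No paired analysis was possible because each condition had 1 array. The 8 differences were recomputed under 5 settings each, and all 40 values moved by less than 0.21, the standard deviation of the receptor probe sets' differences. That spread comes from probe sets mostly below the detection limit, and it is not an error for brighter genes. Many of the 40 values could move little or not at all. Outside Prdx1 and Prdx2, each gene had 1 probe set, so the mean and dimmest settings repeated its main value. Subtracting the median shifted every gene equally, and RMA had already quantile normalized the arrays. Prdx2 moved most, from -0.13 to -0.33 with its dimmer probe set, so the size of its difference depends on the probe set. Srxn1 ran from 2.26 to 2.29, Txnrd1 from 1.28 to 1.31, Prdx1 from 0.37 to 0.40, Prdx2 from -0.33 to -0.11 and Prdx3 from -0.42 to -0.38. Txn1 was the 1 gene whose difference changed sign, in 2 settings (-0.02 to 0.0057). The number of genes at least 2-fold higher stayed at 2 under the other scalings, probe set choices and detection limit and at a threshold of 1.5, and became 1 (Srxn1) at a threshold of 3, by the construction of that threshold. Srxn1 and Txnrd1 each had 1 probe set and lay well above either detection limit. The probe set choices and detection limit could therefore not remove them from the count. The number of genes with an antioxidant core upstream became 5 with the shortened core, which matches more sequences. RMA compresses dim probe sets, which limits Txnrd2 most.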
